A study of Solanum lycopersicum with 12 samples.

Results

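Heat added to salinity was examined in leaves of tomato (Solanum lycopersicum) by comparing plants that received salinity and heat together, called the combination here, with plants that received salinity alone. The comparison rests on 6 of the 12 RNA-seq libraries of the series, chosen by the treatment in their labels, with 3 libraries labelled Salinity + heat and 3 labelled Salinity. The other 6 libraries, 3 of heat alone and 3 of untreated control plants, show what heat changed where no salt was given. Both groups of the comparison had received salt, so the difference between them is the effect of heat on salt-treated leaves and contains no unstressed leaf. The labels give neither the salt concentration, the temperature and length of the treatments, the cultivar, nor the number of plants behind a library, and nothing in them says whether replicates came from separate plants. P-values weigh the differences between groups against the spread between libraries, which may be technical. The deposited identifiers are not paired with gene names in the sources used here, so gene models are described by identifier, level and response, and leaf markers could not be looked up to check the tissue.

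Heat makes proteins unfold and membranes more fluid, and plant cells answer within minutes through heat stress transcription factors that switch on chaperone genes while much of the ordinary transcript population declines. Salinity acts through osmotic stress and sodium toxicity, and leaf cells answer largely through the hormone abscisic acid, which closes stomata. The stresses pull in opposite directions on transpiration, because open stomata cool the leaf but also draw salt into the shoot. The series was designed to ask how tomato metabolism responds when both are applied jointly.

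Total counts ranged from 59190063 to 78005645 in the 6 libraries, and 3 counts corresponded to at most 0.0668 CPM (counts scaled to a common library size with TMM factors). The scaling factors differed between the groups, at 1.232, 1.018 and 1.154 in the combination and 0.995, 0.668 and 0.88 in salinity. Combination replicate 2 stood apart from the other 2 combination libraries. Its correlation with the salinity libraries, on log2 CPM across gene models, averaged 0.937, compared with 0.906 for combination replicate 1 and 0.918 for combination replicate 3. The main counts and shares are therefore also given without it.

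Adding heat to salinity changed a large part of the leaf transcriptome in both directions. Of the 20717 gene models tested with the quasi-likelihood test of edgeR, 44.5% differed between combination and salinity at a Benjamini-Hochberg adjusted p under 0.05, which is what called means here. Higher levels in the combination were found for 24.4% and lower levels for 20.1%. These 5053 raised and 4160 lowered gene models are the sets described below. The median log2 fold change was 1.07 in the raised set and -1 in the lowered set. Over all tested gene models the median was 0.08. All 3 combination libraries lay above all 3 salinity libraries in 4803 of the raised gene models (95.1%), and below them in 3821 of the lowered ones (91.9%). Over all tested gene models the groups failed to overlap in 51.5%, 28.5% with the combination above and 23% with it below. With DESeq2 size factors the calls were 4631 higher and 4547 lower. With total counts and no scaling factors they were 7749 higher and 1894 lower, as the median of all gene models moved from 0.08 to 0.50.

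**Figure D1:**
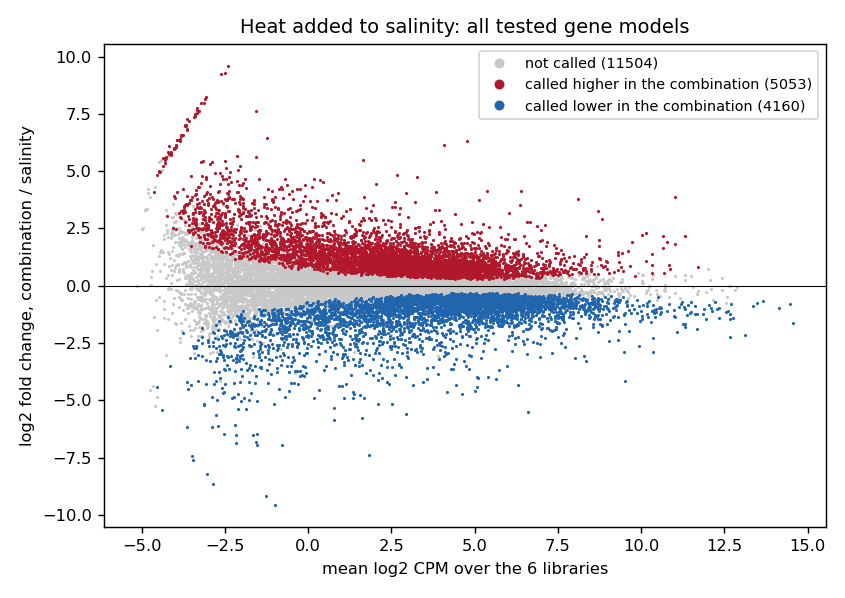
Log2 fold change of the combination over salinity (vertical axis) against mean log2 CPM over the 6 libraries (horizontal axis), 1 point per tested gene model. The 5053 gene models called higher are spread over low and middle levels, while many of the most abundant gene models lie among the 4160 called lower. The narrow diagonal of points at the upper left holds gene models with 0 or very few counts in salinity.

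The 3 combination libraries had not moved equally far from salinity. Their shared direction in the 2 sets is set by the choice of the sets from these libraries. Set against the mean of the salinity libraries, the median gene model of the raised set stood 1.24, 0.90 and 1.07 log2 units higher in combination replicates 1, 2 and 3. In the lowered set the medians were -1.16, -0.76 and -1.01, and over all tested gene models they were 0.11, 0.03 and 0.14. Replicate 2 was therefore the least displaced library in both sets. It held the lowest combination value in 60.1% of the raised gene models and the highest in 74.8% of the lowered ones. Without it, 9558 gene models were called, 4999 higher and 4559 lower. Of these, 8452 had been called in the same direction with it and 0 in the opposite direction. Leaving out combination replicate 1, the most displaced library, gave 6587 calls. The salinity libraries deviated from their own mean by medians of 0.04, -0.09 and 0.05 in the raised set and -0.13, 0.16 and -0.05 in the lowered set. Over all tested gene models the median SD of log2 CPM within a group was 0.28 in the combination and 0.29 in salinity.

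**Figure D2:**
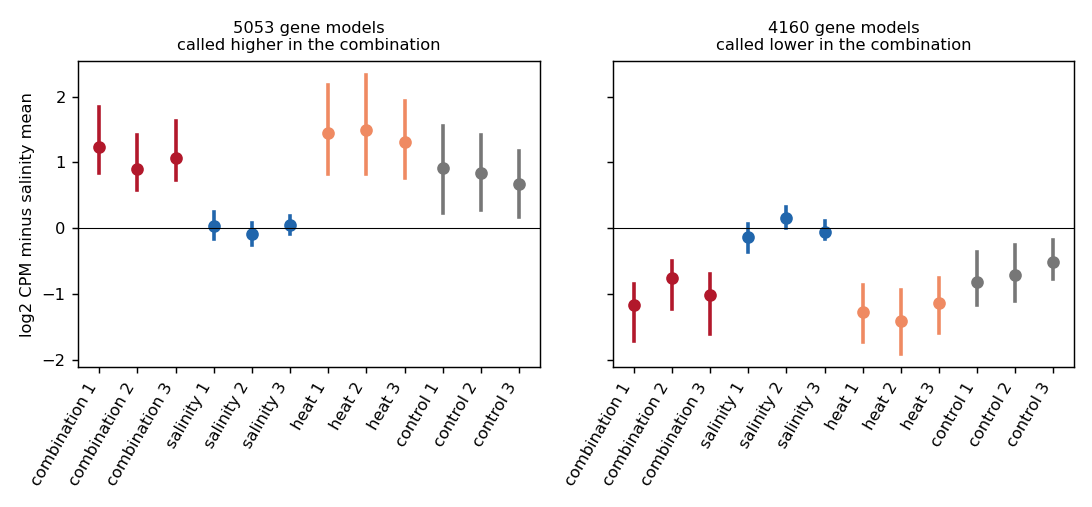
Level of the raised gene models (left) and the lowered gene models (right) in each of the 12 libraries, as log2 CPM minus the mean of the 3 salinity libraries. Points are medians over gene models and bars run between the quartiles. Combination replicate 2 lies nearest to salinity among the 3 combination libraries, and the heat libraries lie at about the distance of combination replicate 1 or beyond it.

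The heat and control libraries entered the choice of these sets only through the filter, the scaling and the estimate of spread that the fit shares over all 12 libraries. With the 6 combination and salinity libraries fitted alone, 3969 gene models were called higher and 3587 lower. The raised set stood 1.44, 1.5 and 1.31 log2 units above the salinity mean in the 3 heat libraries and 0.91, 0.84 and 0.67 units above it in the 3 control libraries. In the lowered set the medians were -1.27, -1.41 and -1.14 in heat and -0.81, -0.71 and -0.51 in control. Gene models that were higher with added heat were thus mostly at their lowest in salinity, and those that were lower with added heat were mostly at their highest there. Because the salinity libraries were used to choose the sets, the distance of the other groups from them is partly set by that choice and is given as a description.

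The direction of change went with abundance. A mean of 100 CPM or more over the 6 libraries was reached by 1369 gene models, and 46.5% of them were lower in the combination, compared with 14.5% higher. Among the 4496 gene models under 1 CPM the balance was the other way, with 9.39% lower and 20.9% higher. The classes between them, from 1 to 10 CPM and from 10 to 100 CPM, had 14.5% and 28.4% lower and 27.2% and 25.4% higher. Increases made up 23.7% of the calls in the most abundant class and 69% in the least abundant one. With DESeq2 size factors these shares were 21% and 66%. With total counts and no scaling factors they were 53% and 84.7%, so that the excess of decreases in the most abundant class was not kept. Without combination replicate 2 increases made up 20.4% of the calls in the most abundant class and 65.5% in the least abundant one.

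**Figure D3:**
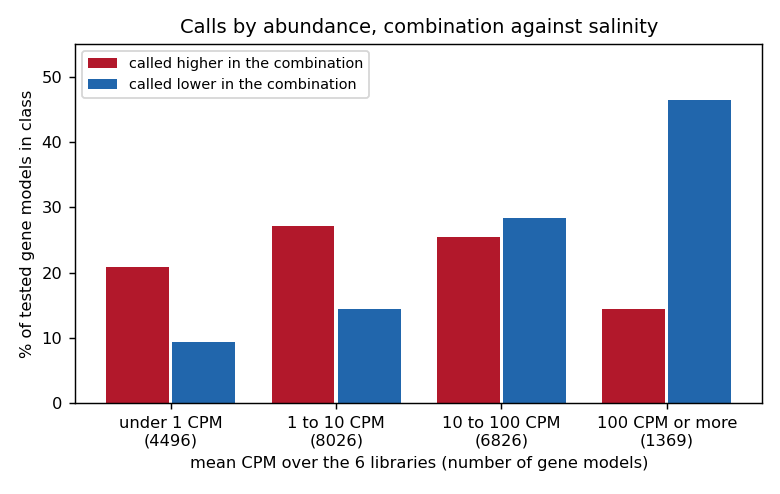
Percentage of tested gene models called higher and called lower in the combination against salinity, in 4 classes of mean CPM over the 6 libraries, with the number of gene models of each class in brackets. The share called lower grows from 9.39% in the class under 1 CPM to 46.5% in the class of 100 CPM or more.

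The shares of all counts held by the sets describe how the sequenced RNA was divided. Their direction between combination and salinity is fixed by the choice of the sets. The lowered set took 39% ± 4.15 of all counts in the combination and 62.2% ± 3.33 in salinity (mean ± SD, n = 3 each). It took 32.9% ± 2.96 in heat and 48.4% ± 3.37 in control (SD, n = 3 each). The raised set took 21.5% ± 3 in the combination and 7.23% ± 1.11 in salinity, with 25.3% ± 1.97 in heat and 14.4% ± 1.63 in control (SD, n = 3 each). Combination replicates 1 and 3 alone had 35% and 38.8% of their counts in the lowered set and 24.5% and 21.5% in the raised set. Few gene models carried much of this. The 10 lowered gene models with the largest loss of share held 8.57% ± 1.22 of the counts in the combination and 15.5% ± 2.4 in salinity, and the 100 with the largest loss held 23.2% ± 3.16 and 39.5% ± 4.89 (SD, n = 3 each). A single raised gene model accounted for 0.963% ± 0.14 of the counts in the combination and 0.0447% ± 0.0179 in salinity (SD, n = 3 each). These shares are parts of a fixed total, so a loss in some gene models raises the share of all others. In whole leaves, fewer cells of a type and less RNA per cell cannot be told apart.

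The size of the changes was read from the 16221 gene models whose mean over the 6 libraries reached 1 CPM, of which 48.4% were called, 25.3% higher and 23% lower. A log2 change of at least 1 was reached by 1847 raised and 1653 lowered gene models, and one of at least 3 by 77 raised and 139 lowered ones. At this level of 1 CPM, changes of at least 3 were more often decreases under TMM scaling, as with DESeq2 size factors (75 raised and 149 lowered), but not with total counts alone (140 raised and 103 lowered). Without combination replicate 2 they numbered 96 raised and 225 lowered. Over all tested gene models the balance was the other way, with 333 raised and 234 lowered by at least 3. The largest fitted increases belonged to gene models with hardly any reads. Of the 74 tested gene models without a single count in any salinity library, 55 were called higher in the combination, although the highest mean among these 55 was 1.36 CPM in the combination. Their fitted fold changes depend on the prior count and are not given. In the opposite direction, 12 tested gene models had no count in any combination library, and 6 of them were called lower. A gene model with 0 counts throughout a group can be called in only 1 direction. The directions of these 55 and 6 calls are therefore set by the choice, and the counts are given as a description.

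The gene models with the largest changes under the limits for naming were 2 that rose and 2 that fell. The limits were an adjusted p under 0.05, a mean of at least 5 CPM over the 6 libraries and no overlap between the groups, which 2705 raised and 2835 lowered gene models met. Solyc06g062370.4.1, on chromosome 6 by its identifier, rose the most. It stood at 236, 230 and 279 CPM in the combination, against 2, 4.59 and 2.74 CPM in salinity. All combination libraries lay far above all salinity libraries, and the ratio of the means was 79.8. On the log2 scale the change was 6.33 (SE 0.39, edgeR adjusted p = 2.43e-06). In plants without salt it stood at 200, 134 and 125 CPM in heat, against 7, 12.8 and 6.12 CPM in control. Heat thus raised it there as well, by 4.15 on the log2 scale (SE 0.35, edgeR adjusted p = 3.26e-05). The effect of heat was larger in salt-treated plants by 2.18 on the log2 scale (SE 0.45, edgeR adjusted p = 0.015 for the interaction). The 12 refits that each left out a library kept this interaction between 1.78 and 2.56, and its edgeR adjusted p at 0.0395 or less. The gene model was chosen for its rise from salinity to the combination, which is part of the interaction. That choice favours a positive interaction, and for the gene models named for a fall it favours a negative one.

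Solyc01g008510.3.1, on chromosome 1, was the next largest rise. Its level was 154, 144 and 129 CPM in the combination, against 2.02, 2.94 and 1.24 CPM in salinity. It was low but present in salinity, with 119, 132 and 79 counts, and the ratio of the means was 68.9. This is a log2 change of 6.12 (SE 0.34, edgeR adjusted p = 8.94e-07). Without salt the levels were 51.6, 43.3 and 63.8 CPM in heat, against 0.449, 0.795 and 0.986 CPM in control, a log2 change of 6.14 (SE 0.35, edgeR adjusted p = 2.14e-06). The interaction was -0.03 (SE 0.39, edgeR adjusted p = 0.976), so no difference between the effects of heat with and without salt was detected.

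The largest fall was that of Solyc12g008650.2.1, on chromosome 12. Its levels were 0.0869, 1.44 and 0 CPM in the combination, from 8, 114 and 0 counts, against 41, 71.7 and 145 CPM in salinity. The salinity libraries were all high but differed more than 3-fold among themselves, and combination replicate 2 held nearly all the counts of its group. The fitted log2 change was -7.41 (SE 1.21, edgeR adjusted p = 0.000567). Without combination replicate 2 it was -10.8, but that fit rests on 8 and 0 counts in the combination and depends on the prior count. In plants without salt it stood at 1.5, 0.173 and 1.09 CPM in heat, against 14.6, 4.64 and 25.6 CPM in control. The log2 change there was -4.01 (SE 1.04, edgeR adjusted p = 0.0107). The interaction of -3.4 (SE 1.42) did not pass the test (edgeR adjusted p = 0.149). Without combination replicate 2 the interaction was -6.66 (edgeR adjusted p = 0.0175), a value that rests on the same few counts. It passed the test in only 1 of the 12 refits that left out a library.

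Solyc02g077590.1.1, on chromosome 2, fell to 0.174, 0.428 and 0.188 CPM in the combination, against 8.75, 4.12 and 33.3 CPM in salinity. One salinity library, replicate 3, lay far above the others, while the combination libraries were uniformly low. The log2 change was -5.87 (SE 0.92, edgeR adjusted p = 0.000441), and it was -4.61 without salinity replicate 3. Without salt the levels were 0.605, 0.074 and 0.675 CPM in heat, against 1.68, 0.766 and 2.52 CPM in control, a log2 difference of -1.86 that did not pass the test (SE 0.8, edgeR adjusted p = 0.0826). In the fit with a replicate block this edgeR adjusted p was 0.0461. The interaction of -4.01 (SE 1.16) passed narrowly (edgeR adjusted p = 0.0492), and 9 of the 12 refits that left out a library raised it above 0.05, to at most 0.112. The replicate block gave an interaction of -3.33 (edgeR adjusted p = 0.0754).

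**Figure D4:**
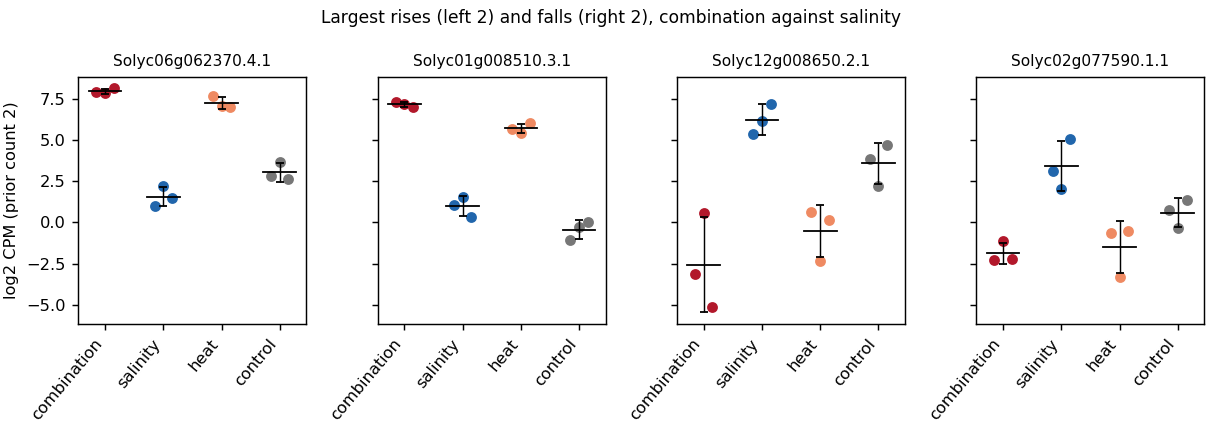
Log2 CPM (prior count of 2) of the 2 gene models with the largest rise and the 2 with the largest fall, in all 12 libraries. Points are libraries, horizontal lines are group means and error bars are SDs (n = 3 each). Combination and salinity libraries do not overlap in any of the 4, which was a limit for naming. The falling gene models spread more widely within groups than the rising ones.

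To ask how far the changes were those that heat also makes without salt, the heat and control libraries were used as a second comparison, which shares no library with the first but does share the filter, the scaling and the estimate of spread. There, calls were made for 39.9% of the tested gene models, with 24.6% higher and 15.2% lower in heat. Of the gene models raised by heat in salt-treated plants, 2406 (47.6%) were also called higher in heat against control and 64 (1.27%) were called lower. The remaining 2583 (51.1%) were not called there. Of those lowered, 2090 (50.2%) were also called lower, 114 (2.74%) were called higher and 1956 (47%) were not called. A gene model not called there was not shown to be unaffected by heat. No interaction was called for 83.9% of the raised and 90.8% of the lowered set, which does not show equal effects. In heat against control, the median log2 fold change was 0.6 in the raised set, -0.59 in the lowered set and 0.14 over all tested gene models. The overlap depended on the libraries. Without combination replicate 2 the shares called in the same direction were 42.1% of the raised and 62.8% of the lowered gene models. Without heat replicate 2 they were 31.7% and 32.4%, and without control replicate 3 they were 31.5% and 33.4%.

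The share also called without salt was higher among larger changes where levels reached 1 CPM. At a mean of 1 CPM or more over the 6 libraries, 42.6% of gene models were called in heat against control, 25.9% higher and 16.7% lower. The share called higher there was 48.3% for all gene models raised by added heat and 60.7% for those raised by a log2 value of at least 1. It was 74.1% (237 of 320) for a log2 value of at least 2 and 80.5% (62 of 77) for at least 3. In the lowered direction the corresponding shares were 50.7%, 63.2%, 72.1% (290 of 402) and 67.6% (94 of 139). None of these 216 gene models beyond a log2 value of 3 was called in the opposite direction in heat against control, but 5 of those beyond it were without combination replicate 2. With no limit on the level, the shares of raised gene models called higher in heat were nearly flat, at 55.5%, 57.6% and 59.8% for log2 values of at least 1, 2 and 3. For lowered gene models they were 59.6%, 66.4% and 70.1%.

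A direct test of whether salt modified the heat effect is the interaction contrast, called for 8.94% of the tested gene models. It was positive, meaning a higher log2 change with salt, in 4.73% and negative in 4.21%. Positive interactions made up 52.9% of the calls, but 39.6% without heat replicate 3 and 62.9% without combination replicate 2. In 57.2% of the 1852 gene models called, the heat effect was larger in absolute size with salt, and in 42.8% it was smaller. The number depended on the libraries. It was 806 without control replicate 2, 826 without combination replicate 1, 958 without heat replicate 2, 1065 without control replicate 1 and 2066 without combination replicate 2. Total counts without scaling factors gave 1103 and the DESeq2 Wald test 3409.

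**Figure D5:**
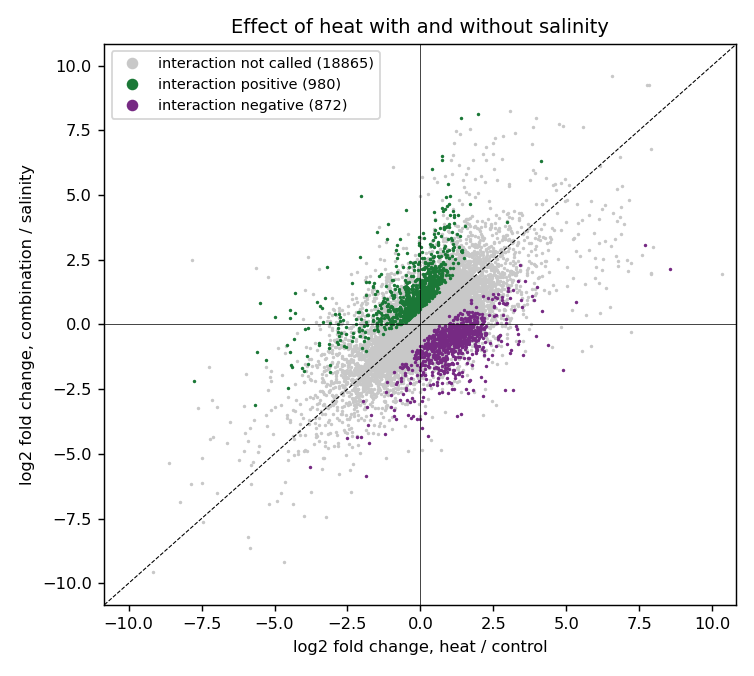
Log2 fold change of the combination over salinity (vertical axis) against that of heat over control (horizontal axis), 1 point per tested gene model, with equality as a dashed line. Positive interactions (980) lie above the line and negative ones (872) below it. Of the 1852, 1475 were called in only 1 of the 2 comparisons plotted.

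Gene models with an interaction fell into a few response types, described here by their median levels and with the tests that defined them. The first type, with 597 members, rose with added heat in salt-treated plants and was not called in heat against control. Its median level was 15.5 CPM in the combination and 6.41 CPM in salinity, compared with 17.3 CPM in heat and 16.7 CPM in control. Salinity was the group that stood apart, with the lowest median of the 4, and its place below the combination is fixed by the tests. The second type held 477 gene models that rose with heat in plants without salt and were not called when heat was added to salinity. Their medians were 4.14 CPM in the combination and 5.2 CPM in salinity, with 11.2 CPM in heat and 4.18 CPM in control. Heat alone was the group that stood apart, and its place above control is fixed by the tests. The first type had 322 members without control replicate 1, 327 without control replicate 2, 258 without combination replicate 1 and 384 without heat replicate 2. The second had 307, 139, 183 and 146 in these fits. Without heat replicate 3 the order turned, with 398 members of the first type and 631 of the second. It also fell to 225 without control replicate 3, 302 without salinity replicate 1, 260 without combination replicate 2, 268 with a replicate block and 185 with total counts. The DESeq2 Wald test gave 1011 members of the first type and 786 of the second.

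Heat acted in opposite directions, both past the test, in 178 gene models. Of these, 114 were lower in the combination than in salinity and higher in heat than in control, with medians of 5.79 CPM in the combination and 12.1 CPM in salinity, and 18.7 CPM in heat and 7.05 CPM in control. The other 64 were higher in the combination than in salinity and lower in heat than in control. Their medians were 22.5 CPM in the combination and 14.7 CPM in salinity, and 12.7 CPM in heat and 22.6 CPM in control. Salinity and heat, each applied alone, had the high medians in the first of these types and the low medians in the second. The order of salinity against the combination and of heat against control is fixed by the tests that defined the types. In both types the median of the combination lay near that of control. The 114 became 60 without control replicate 2 and 70 without combination replicate 1. The 64 became 41 without control replicate 1, 41 without control replicate 2, 42 without combination replicate 1, 110 without combination replicate 2 and 34 without heat replicate 2, and the DESeq2 Wald test gave 148.

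Raised and lowered gene models were distributed over all 12 chromosomes, which the identifiers name. The share called ranged from 42.9% on chromosome 2 to 46.3% on chromosome 12. Increases made up 60.4% of the calls on chromosome 2 and 50.4% on chromosome 12, the ends of the range. Single chromosomes were not tested. The identifiers also number gene models in their order along the chromosome, and neighbours resembled each other slightly. A tested neighbour of a raised gene model was itself raised in 27.4% of cases, compared with 24.4% of all gene models on chromosomes, and a neighbour of a lowered one was lowered in 24.5% of cases, compared with 20.1%. The log2 fold changes of 20661 adjacent pairs correlated weakly across gene models (Pearson 0.0958, Spearman 0.0862), which are not independent replicates.

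The longest run of adjacent tested gene models called in the same direction was one of 10 lowered gene models on chromosome 4, singled out after its values were seen. Summed over the run, the level was 16.2, 20.4 and 15.7 CPM in the combination, against 47.3, 92.7 and 68.3 CPM in salinity. Every combination library lay below every salinity library, a direction set by the choice of gene models called lower in these libraries. The single log2 fold changes lay between -3.2 and -1.41. In plants without salt the sums were 13.9, 6.76 and 13.2 CPM in heat, against 44.1, 35.5 and 58.3 CPM in control. Of the 10, 9 were called lower in heat as well, compared with 15.2% of all tested gene models and 50.2% of the lowered set. Lowered gene models of like size are a closer comparison. At a mean of 1 CPM or more, the share was 63.2% for falls of at least 1 log2 unit and 72.1% for at least 2. Neighbours in a run are not independent. None of the 10 had an interaction call by edgeR's adjusted p. The longest raised run held 7 gene models on chromosome 2, with sums of 86.3, 81.3 and 79.3 CPM in the combination, against 49.8, 50.2 and 50.5 CPM in salinity. Its rise from salinity to the combination is likewise set by the choice. The run stood at 117, 118 and 110 CPM in heat, against 97.2, 88 and 88 CPM in control. Of the 7, 2 were called higher in heat, compared with 24.6% of all tested gene models and 47.6% of the raised set. One of the 7 had an interaction call. Without combination replicate 2 all 10 and all 7 were still called in the same direction. That library was the least displaced from salinity, so leaving it out favours keeping such calls. The runs were not examined without any other library. How the authors counted reads that map to several places is not stated, so levels within a run of similar neighbours are uncertain.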

How the data were processed

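The authors deposited 1 table of raw counts for 34075 gene models and 12 libraries, with ITAG 4.0 in its name. Trimmomatic 0.33 and Bowtie2 2.3.4 are listed in the submitters' processing notes. The counting program, strandedness and treatment of multi-mapping reads are not given in the sources used here, so near-identical, overlapping and antisense gene models are uncertain. Among counts of 1 to 20, between 65.98% and 69.83% per library were even, so both mates of a pair may have been counted. No identifier matched the RefSeq gene table, and the planned gene lists, leaf markers and promoter motifs were not used.

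Gene models passing filterByExpr (20717, holding at least 99.977% of the counts) were tested with edgeR 4.0.16 in R 4.3.3. TMM factors and 1 quasi-likelihood model of the 4 groups were fitted to all 12 libraries, to share the spread between groups of 3, and checked on simulated data. Far fewer gene models were changed in the simulation than were called here, so it did not check the scaling under widespread change. P-values were adjusted over all tested gene models, and called means an adjusted p under 0.05. SE is approximate, from the log2 fold change and the F statistic. The interaction is combination minus salinity, minus heat plus control. With 3 against 3, an exact permutation test cannot go below 0.1 and was not used. The 12 pairs within groups differed beyond sampling noise. Alternatives were DESeq2 1.42.0 size factors and Wald test, no scaling factors, other filters, a replicate block, the compared groups alone, halved counts and leaving out each library. Members, comparisons and alternatives were chosen with earlier results of these data known. Named gene models are the 2 largest rises and 2 largest falls among calls with a mean of at least 5 CPM and no overlap.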

Additional observations from a re-analysis of the deposited data

Results flagged for a closer look

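The results given here were singled out because heat acted differently in the presence and absence of salt by the interaction test. The interaction was called for 1852 of the 20717 tested gene models at an edgeR adjusted p under 0.05. For Solyc06g062370.4.1 the log2 interaction was 2.18 (SE 0.45), with a log2 fold change of 6.33 with salt and 4.15 without it. For Solyc02g077590.1.1 it was -4.01 (SE 1.16), with -5.87 with salt and -1.86 without it, and passed narrowly (edgeR adjusted p = 0.0492). The call was lost in 9 of the 12 refits that left out a library and with the replicate block (edgeR adjusted p = 0.0754). Without salinity replicate 3, the library with the highest level, the interaction was -2.75 (edgeR adjusted p = 0.108). Both gene models were named for a large change from salinity to the combination. That change is part of the interaction, so the choice favours an interaction of the same sign.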

How the results depend on the processing

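The number of gene models called in the combination against salinity ranged from 6587 to 9558 over the refits that left out 1 of its 6 libraries, that of heat against control from 4804 (without heat replicate 2) to 7808, with 5161 without control replicate 3, and that of the interaction from 806 to 2066. The interaction count moved by over 1.5 times with total counts (1103) and the DESeq2 Wald test (3409), against 1852, and the cause was not tested. The other alternatives kept the counts of the 3 contrasts within 1.5 times. The replicate number as a block gave 8833, 7783 and 1297 calls. Deviations of same-numbered combination and salinity libraries had correlations of 0.222, 0.35 and 0.0346. Their mean was 0.202, and that between differently numbered libraries was -0.102. For heat and control these means were 0.116 and -0.0593. Deviations cancel within a group, so the mean for different numbers largely follows from that for the same number and is no separate baseline. The libraries share a number but were not shown to be paired, and a shared batch was not tested. Total counts gave 80.4% increases among the calls of the combination against salinity, 80.6% among those of heat against control and 65.4% positive interactions, against 54.8%, 61.8% and 52.9% with TMM factors. No called value of the 4 named gene models changed sign. Halved counts and total counts took the interaction of Solyc02g077590.1.1 to an adjusted p of 0.0518 and 0.0638 in edgeR, and fitting heat and control alone took its heat effect to 0.0456. Promoter motifs, a planned description, were not run because no identifier could be matched. Depth limits gene models near 0.0668 CPM, the worth of 3 counts.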
